A study of Harpegnathos saltator with 32 samples.

Results

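The 94 most abundant polyadenylated transcripts of the central brain of the ant Harpegnathos saltator were followed across 32 single brains. They were chosen by their level in the 17 control brains, as the 100 genes of the highest median FPKM there out of 14001, less 6 identifiers that the rule leaves out. FPKM is the number of fragments per kilobase of transcript, scaled for sequencing depth, so it can be compared between genes of different length. Gamergates, which are workers that have become reproductive, and workers were labelled day 10. Each ant received dicer-substrate siRNA in the head, in glucose with a transfection reagent, and its central brain was dissected 10 hours later. There were 8 gamergate brains given Kr-h1 siRNA, 9 gamergate brains given GFP siRNA, 7 worker brains given Kr-h1 siRNA and 8 worker brains given GFP siRNA. GFP siRNA has no target in the ant and is the control, and every group carried the injection and an siRNA, so no untouched brain is included.

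A brain's most abundant messages are usually those of proteins needed in bulk by every cell, such as the translation machinery and energy enzymes, and those of proteins that neurons and glia make in quantity for vesicle release, ion gradients and glutamate uptake. Secreted carrier proteins and long noncoding RNAs can reach the same range in insect brains. Kr-h1 is a transcription factor with zinc fingers that responds to juvenile hormone. The gene roles given below are those of the Drosophila or other insect genes of the same symbol.

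The libraries held between 7.75 and 23.79 M recovered reads, with a median of 13.19 M. Kr-h1 itself was a low transcript. It had 0.114 to 1.008 FPKM (median 0.386) in gamergates given Kr-h1 siRNA against 0.480 to 7.571 FPKM (0.809) in gamergate controls. Workers had 0.297 to 0.840 FPKM (0.424) after Kr-h1 siRNA against 0.369 to 2.543 FPKM (0.672) in controls, so the groups overlapped in both castes. All 10 neuronal and all 9 glial marker genes were above 0 in every library, and the members include both neuronal (cpx, nSyb) and glial (Gs2, Eaat2) markers. Markers of other tissues were detected too. Fat body markers, of which 4 of 7 were above 0 in every library and of which the member apolpp is one, summed to medians of 334.9 FPKM in gamergates given Kr-h1 siRNA, 348.4 in gamergate controls, 291.1 in workers given Kr-h1 siRNA and 332.3 FPKM in worker controls. Haemocyte markers summed to medians between 24.5 and 25.7 FPKM. Summed retinal markers ran from 29.0 to 169 FPKM in gamergates given Kr-h1 siRNA, 41.8 to 199.1 in gamergate controls, 25.7 to 212.6 in workers given Kr-h1 siRNA and 36.9 to 332.6 in worker controls. Summed muscle markers had medians of 57.3, 90.0, 61.2 and 99.2 FPKM in the same order of groups, and reached 451.2 FPKM in 1 gamergate given Kr-h1 siRNA. The part of RNA from these tissues in the differences below was not tested. In whole tissue, fewer cells of a type and less RNA per cell cannot be told apart. Single libraries stood apart in the members' values. Gamergate GFP replicate 3 was the highest of its group for 45 of the 94 members, worker GFP replicate 4 for 41 and gamergate Kr-h1 replicate 1 for 38, while worker Kr-h1 replicate 2 was the lowest of its group for 48. The labels name 2 rounds of the experiment and 2 sequencing runs, and the 8 gamergate brains of round 2 were alone on run 200508.

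Among the members, 83 were annotated as protein-coding, 7 as pseudogenes and 4 as long noncoding RNAs. A gene symbol was given for 41, and the other 53 carried an identifier alone. Levels fell steeply with rank. The first member, LOC112588553, had a control median of 4074 FPKM, which was 22.9 times that of the last. Only 10 members had a control median above 1000 FPKM, and 65 lay under 500 FPKM. The first 10 members made up a median of 36.9% of the members' summed FPKM. Those 10 were the protein-coding LOC112588553, Tsf1 (2218 FPKM), LOC105190786 (1221 FPKM), LOC105189566 (1117 FPKM) and spab (1034 FPKM), the noncoding LOC112589549 (1944 FPKM) and LOC105188517 (1386 FPKM), and the pseudogenes LOC109504536 (1787 FPKM), LOC109504538 (1755 FPKM) and LOC112589760 (1664 FPKM). These levels chose the members and are a description.

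**Figure D1:**
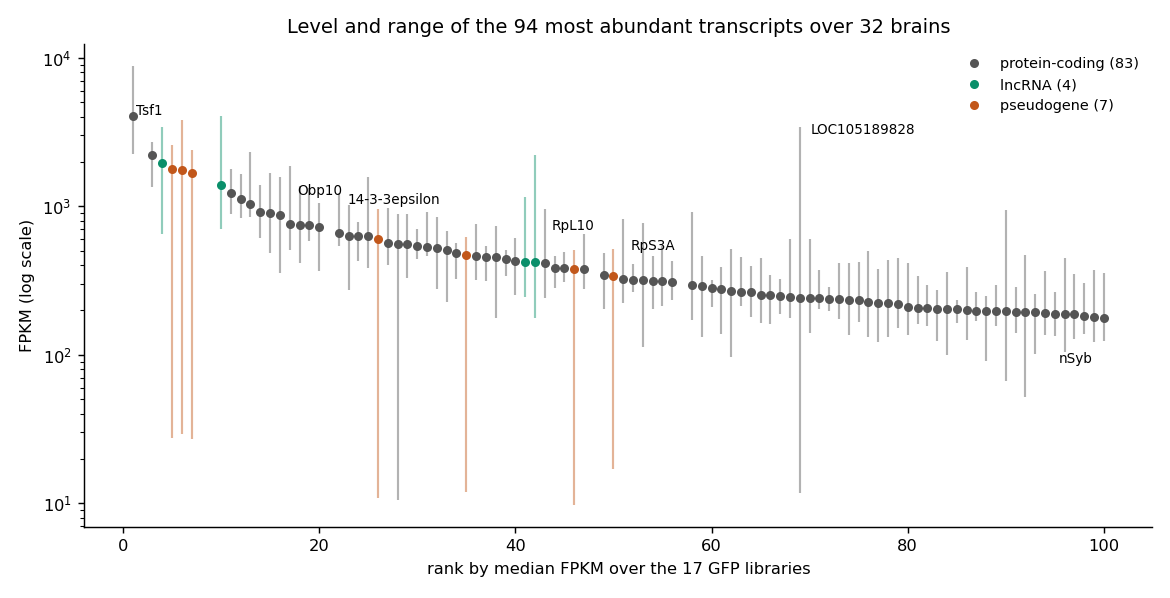
Level of each of the 94 members, by rank of its median FPKM over the 17 GFP libraries (horizontal axis). Points are that control median on a log scale, and lines run from the lowest to the highest of all 32 libraries. Most lines are short, with a median highest-over-lowest ratio of 2.75, while 8 members from 13 consecutive loci and LOC105189828 reach far down.

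At the lower end of the list the values were close together. The last members inside were LOC105180830 at 187.2 FPKM, LOC105189642 at 186.9, nSyb at 183.5, chic at 180.8 and apolpp at 178.1 FPKM. The next genes outside were LOC105182317 at 177.0, RpL37-1 at 176.7, RpL23 at 175.5, bru3 at 173.3 and RpS6 at 173.2 FPKM. The control ranges of these 10 genes overlapped, so the order of neighbours there is within the spread between brains.

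Tsf1 stood highest among the members with a symbol. It encodes transferrin, an iron-binding protein of the haemolymph. Its level ran from 1397 to 2400 FPKM in gamergates given Kr-h1 siRNA, 1352 to 2628 in gamergate controls, 1942 to 2556 in workers given Kr-h1 siRNA and 1967 to 2702 FPKM in worker controls. All groups overlapped, and no comparison of Tsf1 passed the test described below. Obp10, of the odorant-binding protein family, had group medians of 863, 685, 622 and 898 FPKM in the same order of groups. The third carrier, apolpp, encodes the precursor of the lipophorin apolipoproteins and lay at the edge of the list.

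Proteins of signalling, the synapse and ion transport formed the largest named set, with 7 members. The phosphoprotein-binding adaptors 14-3-3epsilon (control median 659.1 FPKM) and 14-3-3zeta (457.0 FPKM) led it. Vha16 (561.5 FPKM) and Vha55 (194.8 FPKM) encode subunits of the vacuolar proton pump, which acidifies vesicles, and Atpalpha (265.3 FPKM) the sodium pump that restores ion gradients. Complexin, encoded by cpx (221.4 FPKM), and the vesicle SNARE nSyb (183.5 FPKM) act in synaptic vesicle release. Glial genes were of similar abundance. Gs2, the glutamine synthetase, had a control median of 527.0 FPKM and the excitatory amino acid transporter Eaat2 one of 235.5 FPKM. The prohormone convertase chaperone 7B2 (197.0 FPKM) was the single member of the neuropeptide list, and Appl, the amyloid precursor protein-like gene, reached 378.4 FPKM.

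The large housekeeping families entered the list with few named genes. Families were matched by gene symbol, so none of the 53 members without a symbol could be counted in them. Of 59 cytosolic ribosomal protein genes matched by symbol, RpL10 (416.0 FPKM) and RpS3A (323.6 FPKM) were members. Of 41 translation factor genes, 5 were members, namely pAbp, the poly(A)-binding protein, the elongation factors EF1a-F2, Ef-1a-f1 and eEF2, and the RNA helicase eIF4A, between 204.7 and 382.5 FPKM. Energy supply was represented by Ant, the mitochondrial ADP/ATP carrier (533.1 FPKM), arginine kinase Argk1 (442.8 FPKM) and the proton channel subunit ATPsynC (189.5 FPKM). Polyubiquitin, Ubi-p63E, stood at 630.0 FPKM, and the chaperones Hsc70-4 and Hsp90 at 277.3 and 245.6 FPKM. The peroxiredoxin-like Tpx-4 (192.9 FPKM) and profilin, encoded by chic (180.8 FPKM), closed the named set.

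Abundance per length was not the same as abundance in reads. The deposited values let the transcript length used by the authors be recovered, and member lengths ran from 270 bases in LOC109503612 to 21344 bases in cpx, with a median of 3614 bases against 4324 bases for 8941 genes of at least 1 FPKM. Only 47 of the 94 members were also among the 100 genes with the most control reads. LOC105188517 took the most reads of all genes. Its recovered length was 15484 bases, whereas RefSeq (assembly Hsal_v8.6) gives that noncoding locus a span of 2070 bases, so its FPKM rests on a gene model that is not the RefSeq one. LOC109503612, at 270 bases, ranked 42 by FPKM and 1621 by reads.

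The 15 brains given Kr-h1 siRNA did not enter the rule. In them, 88 of the 94 members were again among the 100 genes with the highest median. The 6 others were Tpx-4 at rank 101, LOC105180830 at 102, LOC105181153 at 105, LOC105189642 at 107, apolpp at 127 and LOC105190668 at 130. Across single libraries, 45 members were in the first 100 in every one of the 32, and 76 were in the first 200. Members' share of all recovered reads ran from 18.1% to 20.7% (median 19.3%) in gamergates given Kr-h1 siRNA and from 14.7% to 19.98% (17.7%) in gamergate controls. In workers it ran from 17.9% to 22.35% (20.4%) after Kr-h1 siRNA and from 19.8% to 24.3% (22.8%) in controls. Worker controls had the highest median and gamergate controls the lowest, and the ranges of all 4 groups overlapped at least at their ends. LOC105188517, the gene with the most reads, had medians of 2492 FPKM in worker controls and 984.4 FPKM in gamergate controls. Its part in these shares was not tested.

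Most members varied little between brains of the same group and round. The median SD of log2 FPKM was 0.25 for members and 0.24 for all tested genes. The steadiest were LOC105183560 (SD 0.09, 264.9 to 410.0 FPKM over all libraries), eEF2 (0.10), the Bax inhibitor BI-1 (0.10), Argk1 (0.11) and pAbp (0.11). At the other end stood LOC105189828 with an SD of 2.67, followed by LOC105190668 (0.80), LOC105190105 (0.59), LOC105181153 (0.57) and LOC109503612 (0.55).

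LOC105189828, a protein-coding gene with no symbol in the files, was the only member with an SD above 1. It ran from 12.3 to 3420 FPKM (median 193) in gamergates given Kr-h1 siRNA and from 19.0 to 3282 FPKM (578) in gamergate controls. In workers it ran from 11.8 to 2502 FPKM (560) after Kr-h1 siRNA and from 32.3 to 2328 FPKM (88.4) in controls. Every group held both extremes. In all, 9 libraries were above 1000 FPKM and 10 were under 100 FPKM, so its place in the list rested on a median between very different brains. The gamergate minus worker difference in controls was 2.10 ± 1.5 on the log2 scale (± its SE), the largest of any member, at a limma adjusted p of 0.411.

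Of the members, 8 came from a single stretch of neighbouring loci and were abundant in only some of the libraries. They are LOC112589757, LOC109504538, LOC112589759, LOC112589760, LOC109504534, LOC109504537, LOC109504536 and LOC112589755, which lie within 13 consecutive loci of the RefSeq table, and 7 of them are annotated as pseudogenes. In the 8 round 2 gamergate brains on run 200508, LOC109504536 ran from 27.6 to 70.3 FPKM, against 971.1 to 2578 FPKM in the other 24 libraries. LOC112589755 ran from 9.76 to 18.2 FPKM on run 200508, against 189.4 to 505.9 FPKM in the other 24. None of the 8 members overlapped between these sets, and the share of all genes without such overlap was not counted. Separation by round was not limited to these loci. LOC105183241, mub and igl were lower and Hsp90 higher in round 2 than in round 3 gamergates, also without overlap. Ranks in single libraries reached 3322, so on run 200508 these transcripts were not among the most abundant.

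Between round 3 and round 2 gamergates the median of these 8 members differed 11.4- to 38.6-fold, higher in round 3. Together they took 0.017% to 0.030% of reads on run 200508, against 0.30% to 0.884% in the other 24 libraries. The 13 loci were delimited outward from LOC109504536 as neighbours whose gamergate median was lower in round 2 by over 1 on the log2 scale. They were thus chosen by this same difference, and the counts that follow are a description. Of all tested genes, 0.371% had a gamergate median lower by over 3 on the log2 scale in round 2 than in round 3. That is 35 of 9433 genes, of which 8 were these members. At over 2 there were 9 members (1.62% of all genes) and at over 1 there were 10 (7.78%). Workers of both rounds were on the same run. There no member was lower in round 2 by over 3 (0.053% of all genes), and 1, LOC105189828, was lower by over 2 (0.117%) and so also by over 1 (0.912%). Since round 2 gamergates are alone on their run, run and brain sample cannot be told apart for these loci. Some of the 8 may also share reads. LOC109504536 and LOC112589760 both have 582 bases, and their FPKM ratio stayed between 1.02 and 1.09 in all 32 libraries. LOC109504537 and LOC112589759 both have 817 bases, with a ratio between 1.02 and 1.24. The split of reads within each pair is therefore uncertain.

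**Figure D2:**
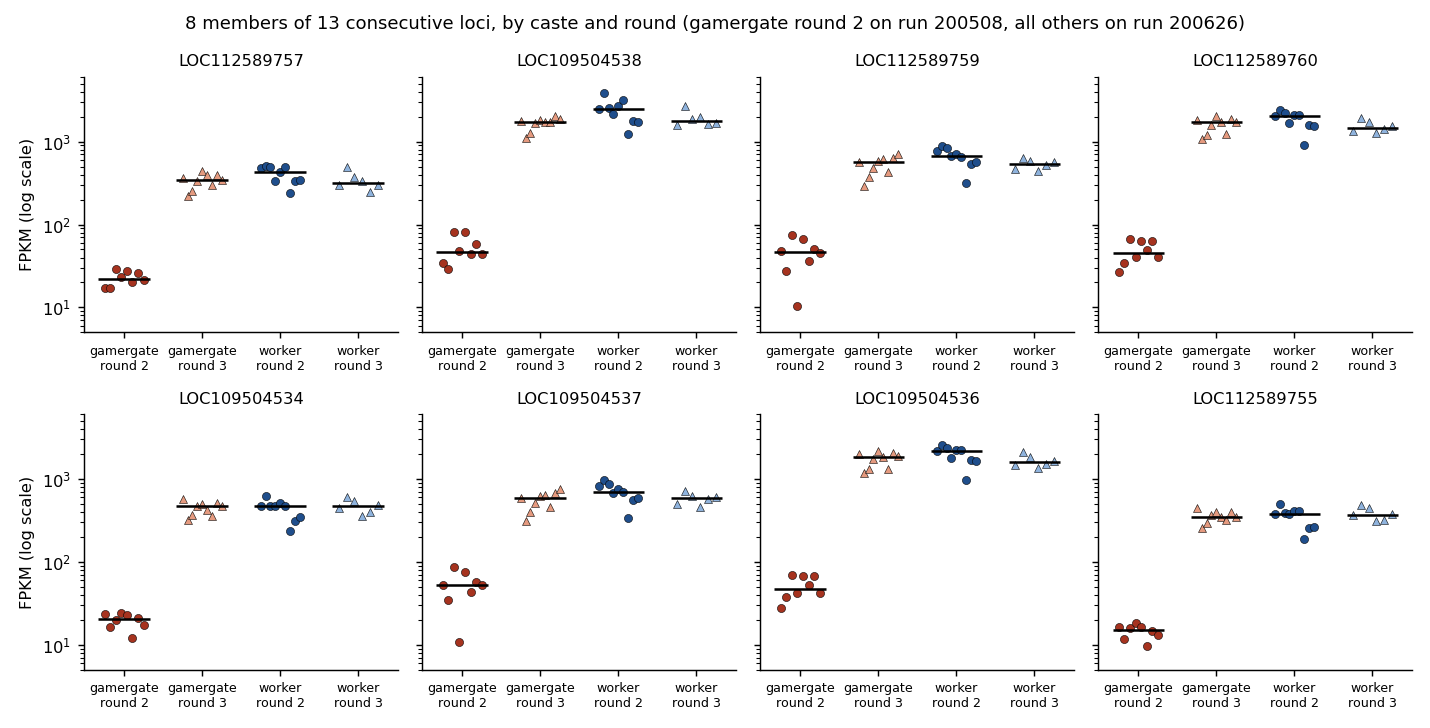
FPKM (log scale) of the 8 members from 13 consecutive loci, by caste and round, with Kr-h1 and GFP libraries together. Each point is a brain and lines are medians. Round 2 gamergates, on run 200508, lie below every other library in all 8 panels, for example at 27.6 to 70.3 FPKM for LOC109504536.

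Differences between groups were tested with limma on log2(FPKM + 0.5) over 9433 genes, with a term for round and run, and a gene was called where its p, adjusted by Benjamini-Hochberg, was under 0.05. All 94 members were among the genes tested. Since the GFP brains chose the members, the GFP side of each comparison is not independent of the choice. The comparisons also share libraries with each other, and the interaction holds all of them.

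Knockdown of Kr-h1 in gamergates called no member. Over all genes 0.721% were called (0.318% higher, 0.403% lower), and 17 members (18.1%) had an unadjusted limma p under 0.05 against 26.4% of all genes. The median difference was 0.10 for members and 0.01 for all genes, and 66 members were above 0. The smallest adjusted p belonged to LOC105190786, a coding gene with no symbol. It ran from 898.6 to 1385 FPKM (median 1035) in gamergates given Kr-h1 siRNA, against 1221 to 1783 FPKM (median 1384) in gamergate controls. Most treated brains lay below the control range, but 3 reached into it. The difference, given with its SE, was -0.39 ± 0.10 (limma adjusted p = 0.0508). For apolpp the values were 132.3 to 221.2 FPKM (155.3) in treated gamergates and 145.4 to 357.8 FPKM (220.5) in controls, with overlap, and a difference of -0.47 ± 0.14 (limma adjusted p = 0.0705). The largest positive value among members with small p was that of the noncoding LOC109503612, at 1.03 ± 0.36 (limma adjusted p = 0.0969). It averaged 1022 ± 698.9 FPKM in treated gamergates and 466.4 ± 278.8 FPKM in controls (SD, n = 8 and 9). No member separated the groups without overlap, against 0.106% of all genes. The count of 0 became 5 when gamergate GFP replicate 3 was left out, 3 when worker Kr-h1 replicate 2 was, and 1 without worker GFP replicate 4, worker GFP replicate 5, worker GFP replicate 7 or gamergate Kr-h1 replicate 7. With limma voom on recovered reads it was 1.

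In workers, knockdown called no member and no gene at all. With limma, 17 members (18.1%) had an unadjusted p under 0.05, against 17.2% of all genes, and voom on recovered reads also called 0. The members' median difference was -0.14, against 0.00 over all genes, and 69 of 94 were below 0. The smallest p values were those of LOC112589755 (-0.50 ± 0.14) and LOC109504534 (-0.51 ± 0.15), 2 pseudogenes of the 13 consecutive loci above, both at a limma adjusted p of 0.157. ATPsynC followed among named genes, with 133.7 to 188.8 FPKM (161.5) in treated workers and 144.5 to 242.3 FPKM (205.3) in worker controls. Its difference was -0.24 ± 0.09 (limma adjusted p = 0.208). Among positive values the smallest p was that of Eaat2, at 0.21 ± 0.11 (limma adjusted p = 0.320). No member separated the worker groups without overlap, against 0.0848% of all genes.

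**Figure D3:**
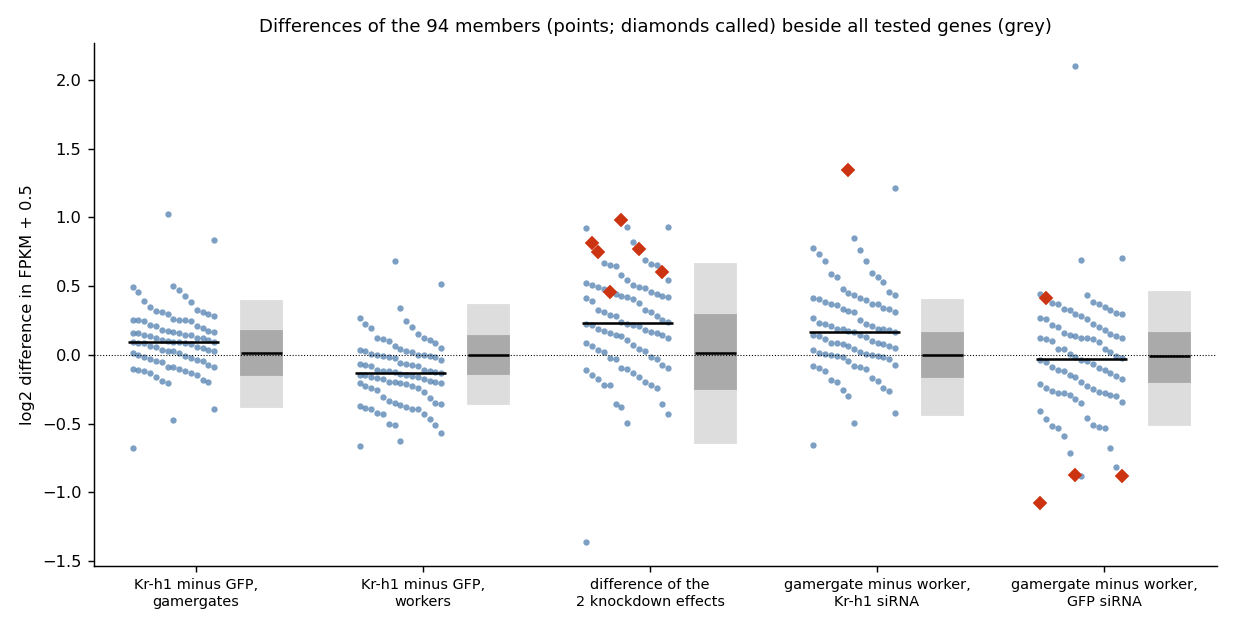
Log2 differences of the 94 members (points, with diamonds for called members and lines for medians) in the 5 comparisons. Grey boxes give the 5 to 95 and 25 to 75 percentile ranges of all 9433 tested genes. Members centre at 0.10 in gamergate knockdown and -0.14 in worker knockdown, and the 6 diamonds in the middle column are above 0.

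The knockdown difference itself was compared between castes. This interaction, the gamergate difference minus the worker difference, was positive and called for 6 members (6.38%) and negative for none, while 16.5% of all genes were called in either direction 9.47% as positive and 7.01% as negative. A share of members below the background is no result about the members as a set. The 6 were the noncoding LOC105189300 (0.98 ± 0.28, limma adjusted p = 0.0239), RpL10 (0.81 ± 0.26, 0.0342), LOC105192162 (0.77 ± 0.23, 0.0261), RpS3A (0.75 ± 0.24, 0.0369), LOC105189799 (0.60 ± 0.19, 0.0341) and eIF4A (0.46 ± 0.13, 0.0238). RpL10 and RpS3A encode proteins of the large and small ribosomal subunit, and eIF4A, the single one of the 5 translation factor members to be called, unwinds messages at the start of translation. None of the 6 was called within either caste.

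In these genes the medians lay on opposite sides in the 2 castes. RpL10 ran from 314.9 to 962.4 FPKM (439.3) in gamergates given Kr-h1 siRNA and from 240.3 to 596.1 (340.6) in gamergate controls, and from 324.5 to 503.0 (450.2) in workers given Kr-h1 siRNA and from 405.0 to 855.6 FPKM (575.6) in worker controls. The groups overlapped within both castes. The noncoding LOC105189300 had 268.2 to 1159 FPKM (401.0) in treated gamergates and 244.2 to 752.0 (329.8) in gamergate controls, and 292.9 to 460.3 (402.5) in treated workers and 424.2 to 868.8 FPKM (572.0) in worker controls. Its worker groups overlapped only at their ends. eIF4A had 192.1 to 274.8 FPKM (203.2) in treated gamergates and 124.3 to 211.0 (178.6) in gamergate controls, against 185.4 to 238.6 (197.3) in treated workers and 202.5 to 273.3 FPKM (235.0) in worker controls.

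**Figure D4:**
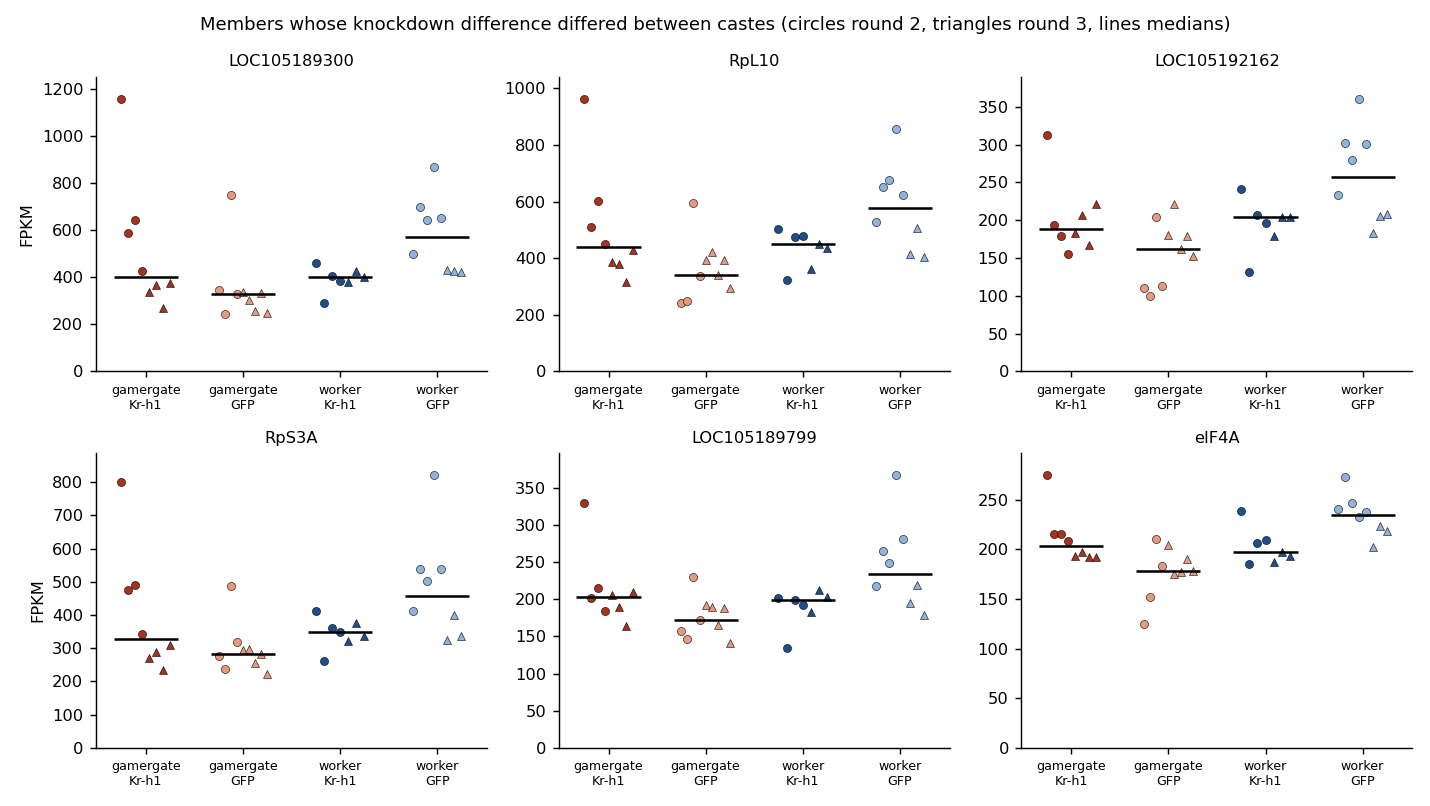
FPKM by group for the 6 members called in the caste-by-knockdown interaction, 1 point per brain (circles round 2, triangles round 3, lines medians). Medians are higher after Kr-h1 siRNA in gamergates and lower after it in workers, with overlapping groups.

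Over the wider families the counts are read beside 9.47% positive and 7.01% negative calls among all genes. Of 59 ribosomal protein genes matched by symbol, 51 were called positive and none negative in the interaction, with a median of 0.75, beside 0.01 over all genes. Of 41 translation factors, 12 were positive and 2 negative (median 0.32), and of 56 oxidative phosphorylation genes 32 were positive and 1 negative (median 0.47). Positive calls also outnumbered negative ones for ubiquitin and protein turnover (15 and 1 of 48, median 0.31), detoxification and redox (4 and 0 of 11, 0.19) and the cytoskeleton (3 and 0 of 11, 0.50). The synapse, signalling and ion transport list had 4 positive and 3 negative calls among 46 genes (median 0.04). Within gamergates, 2 ribosomal genes were called higher after Kr-h1 siRNA, and within workers none was called. Between castes in GFP brains, all 59 ribosomal genes were below 0 (median -0.55), and 5 were called lower, beside 0.594% of all genes. The family counts were not redone by round, without single libraries or with the gene span trend removed. Marker lists of cell types moved in the interaction too. All 9 glial markers were below 0 (median -0.34, 1 called negative), as were all 5 haemocyte markers (-0.40, 1 called negative). Of 9 retinal markers 7 were below 0 (median -0.89, 1 called in each direction), and of 10 muscle markers 9 were above 0 (median 1.03, 1 called negative). Neuronal markers had 5 of 10 below 0 (median -0.02, 1 called negative) and fat body markers 3 of 6 (-0.23, 1 called negative). The part of cell makeup in the result was not tested.

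These 6 calls rested on few libraries and on 1 round. None was called once worker Kr-h1 replicate 2 was removed. The count was 3 without worker GFP replicate 4, gamergate GFP replicate 1 or 2, or gamergate Kr-h1 replicate 1. Removing worker Kr-h1 replicate 1 gave 11 calls, worker GFP replicate 6 gave 12 and gamergate GFP replicate 3 gave 27. In round 2 alone the differences were larger, from 0.70 for eIF4A to 1.59 for LOC105189300 (limma adjusted p 0.063 to 0.0678). In round 3 alone they ran from 0.06 for RpS3A to 0.27 for LOC105189300 (limma adjusted p 0.395 to 0.899). Of the 6 transcripts, 4 had a recovered length under 1000 bases, at 441, 610, 832 and 917 bases. After removal of a trend with RefSeq gene span in each library, eIF4A alone was still called. Gene span is not transcript length, and no correction for transcript length was run. The part of gene span and of single libraries in the result was not tested further.

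Gamergate and worker controls differed in 4 members (4.26%, against 1.33% of all genes), 1 of them higher in gamergates (0.731% of all genes) and 3 lower (0.594%), and the abundant noncoding RNAs led. LOC105188517 ran from 704.6 to 1386 FPKM (median 984.4) in gamergate controls, against 1934 to 4041 FPKM (2492) in worker controls. The castes did not overlap. It averaged 1041 ± 243 FPKM in gamergate controls and 2714 ± 816 FPKM in worker controls (SD, n = 9 and 8), with rounds pooled. The log2 difference with its SE, from the fit with the batch term, was -1.07 ± 0.22 (limma adjusted p = 0.0133). LOC112589549 ran from 722.8 to 1944 FPKM (1236) in gamergate controls and from 2071 to 3328 FPKM (2633) in worker controls, again without overlap. Its difference was -0.88 ± 0.20 (limma adjusted p = 0.0295). The gamergate values differed by round. With both siRNAs together, the LOC112589549 median was 841.6 FPKM in round 2 gamergates, on run 200508, and 1761 FPKM in round 3 gamergates. In workers, all on run 200626, it was 2590 FPKM in round 2 and 2851 FPKM in round 3. LOC105188517 had 938.7 and 1352 FPKM in gamergates of rounds 2 and 3, and 2465 and 2181 FPKM in workers.

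These noncoding loci are near neighbours in the RefSeq table, with 1 other gene, LOC105188516, between them. That gene had a median of 0.650 FPKM, on a recovered length of 1412 bases against a RefSeq span of 8673 bases. The recovered length of LOC105188517 exceeds its RefSeq span, and whether the authors' model of it covers LOC112589549 is not given in the sources used here. The FPKM ratio of LOC112589549 to LOC105188517 ran from 0.641 to 1.44 over the 32 libraries, with a median of 1.16. Whether the pair moved together across brains was not tested.

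LOC105181155, a coding gene with no symbol, fell to 271.0 to 707.2 FPKM (479.1) in gamergate controls, against 553.5 to 1022 FPKM (747.2) in worker controls. Only a few brains overlapped, and the difference was -0.88 ± 0.20 (limma adjusted p = 0.0280). It lies within 4 consecutive loci of which LOC105181152 and LOC105181153 are also members; neither of these was called. Vha55, the vacuolar proton pump subunit, was the single member higher in gamergate controls, with 191.6 to 277.4 FPKM (248.3) against 140.9 to 194.8 FPKM (161.6) in worker controls. A single worker brain reached into the gamergate range. The difference was 0.41 ± 0.09 (limma adjusted p = 0.0279). Other members with small p were LOC105191523 (0.71 ± 0.19, limma adjusted p = 0.0543), LOC105189300 (-0.88 ± 0.24, 0.0561) and RpS3A (-0.71 ± 0.21, 0.0751). LOC105190786 also separated the control castes, at 1221 to 1783 FPKM in gamergates and 899.0 to 1204 FPKM in workers, with a limma adjusted p of 0.142. In all, 3 of 94 members did not overlap, against 3.27% of all genes. Of 9 glial markers, 8 were above 0 (median 0.44, 4 called higher, beside 0.731% of all genes). Of 9 retinal markers, 7 were above 0 (median 0.72, 1 called higher and 2 lower). Of fat body markers 5 of 6 were above 0 (0.51), of neuronal 7 of 10 (0.07) and of haemocyte 3 of 5 (0.14). Of muscle markers 8 of 10 were below 0 (-0.55). These last lists held no call. The part of cell makeup in the caste differences was not tested.

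For the caste difference, round 3 offers both castes on the same run. There LOC105188517 differed by -0.78, LOC112589549 by -0.69, LOC105181155 by -0.66 and Vha55 by 0.38, and no call was made (limma adjusted p 0.0615 to 0.161). LOC105188517 stayed called whichever single library was left out. The other 3 calls were lost without worker GFP replicate 8, gamergate GFP replicate 7, gamergate GFP replicate 9 or worker Kr-h1 replicate 6, which left 1 member. LOC112589549 and LOC105181155 were also lost without worker GFP replicate 7, and Vha55 without gamergate GFP replicate 6. Scaling each library to the summed FPKM of genes outside the list shifted the median of all genes to -0.27, and Vha55 then differed by 0.11 (limma adjusted p = 0.780).

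**Figure D5:**
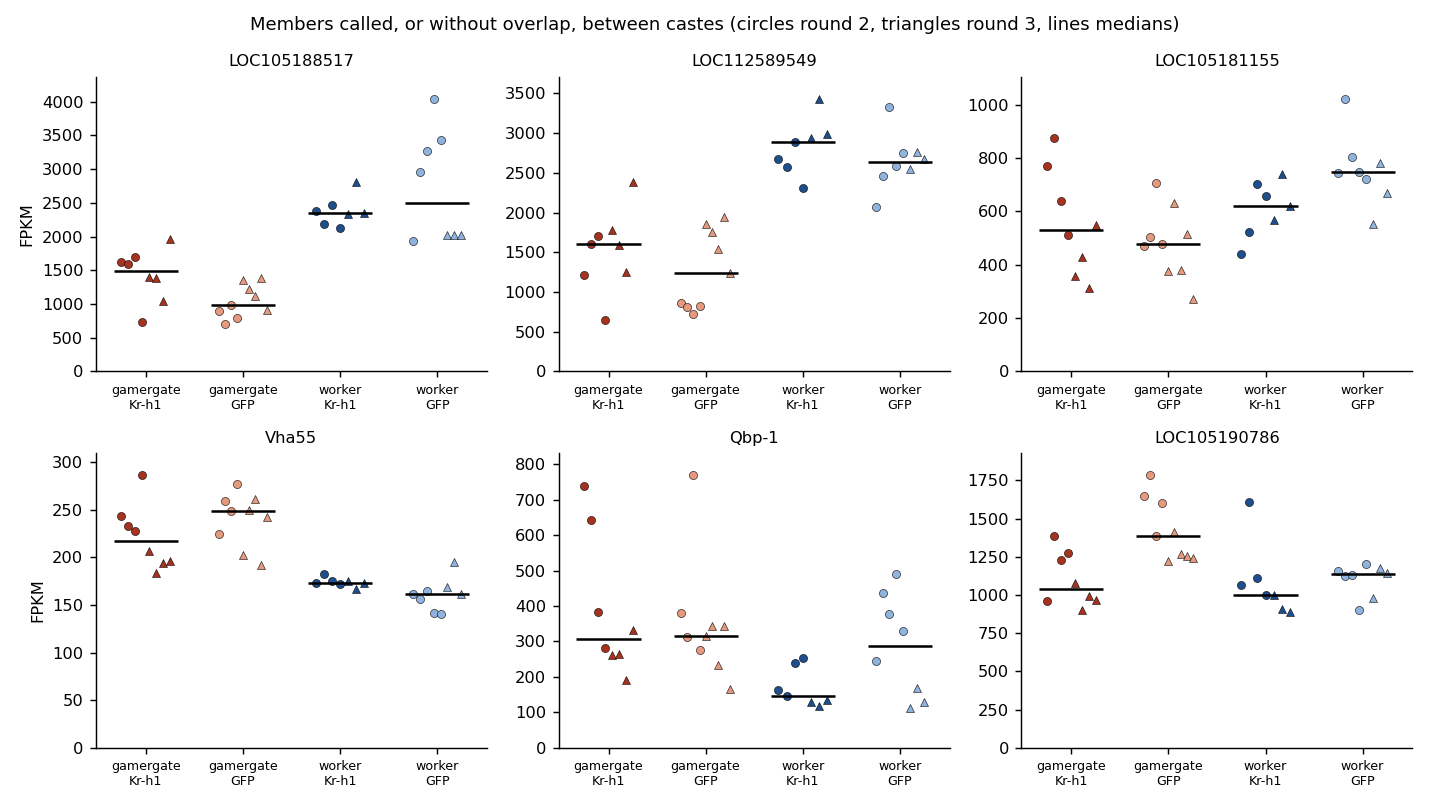
FPKM by group for the 5 members called between castes and for LOC105190786, 1 point per brain (circles round 2, triangles round 3, lines medians). LOC105188517 and LOC112589549 lie lower in gamergate GFP than in every worker brain, and Vha55 lies higher in gamergates than in nearly all worker brains.

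After Kr-h1 siRNA, 1 member was called between castes (1.06%, against 0.17% of all genes), and it was higher in gamergates (0.053% of all genes higher, 0.117% lower). Qbp-1, whose function in the brain is not given by the files, ran from 192.5 to 738.7 FPKM (306.1) in gamergates and from 118.1 to 253.7 FPKM (145.8) in workers given Kr-h1 siRNA. The castes overlapped by a few brains. Gamergates averaged 387 ± 197 FPKM and workers 169 ± 54.9 FPKM (SD, n = 8 and 7), with rounds pooled. The fit with the batch term gave a log2 difference of 1.34 ± 0.29 (limma adjusted p = 0.0419). In GFP brains the values were 166.2 to 768.8 FPKM (316.5) in gamergates and 113.0 to 488.9 FPKM (287.3) in workers, with a difference of 0.69 ± 0.28 (limma adjusted p = 0.158). Within round 3 alone, the Kr-h1 siRNA difference was 1.01 (limma adjusted p = 0.064). The call was the least firm of those reported, since removing a single library lost it in 22 of 32 cases, with a limma adjusted p between 0.0141 and 0.123 and a difference between 1.28 and 1.46.

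The noncoding RNAs kept the same order of castes under Kr-h1 siRNA. LOC105188517 ran from 732.3 to 1969 FPKM (1496) in gamergates and from 2132 to 2813 FPKM (2355) in workers, without overlap, with a difference of -0.49 ± 0.22 (limma adjusted p = 0.296). LOC112589549 ran from 649.8 to 2381 FPKM (1601) in gamergates and from 2309 to 3430 FPKM (2885) in workers, with a difference of -0.66 ± 0.21 (limma adjusted p = 0.153). Vha55 had 183.5 to 286.3 FPKM (217.1) in gamergates and 167.0 to 182.7 FPKM (172.6) in workers, without overlap, with a difference of 0.17 ± 0.10 (limma adjusted p = 0.406). The 2 members without overlap compare with 0.392% of all genes. Whether the caste difference of these genes changed with knockdown is the interaction, which gave 0.58 ± 0.25 for LOC105188517 (limma adjusted p = 0.0937) and -0.24 ± 0.11 for Vha55 (limma adjusted p = 0.104). Over all members the median difference was 0.17 after Kr-h1 siRNA and -0.03 in GFP brains, beside 0.00 and -0.01 over all genes.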

How the data were processed

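Polyadenylated RNA of single central brains was measured by strand-specific sequencing, per the labels' protocols. The deposited values are FPKM per gene, made by the authors before deposit. Per the submitters' processing notes the tools included STAR, featureCounts, bcl2fastq and DESeq2. Build, annotation and the strand setting of the counting were not given in the sources used here; coordinates are therefore left out. The control siRNA is GFP in the titles but is spelled GRP in the treatment protocol. Each library is 1 brain. The p-values set each difference against the spread between single brains left by the group and batch terms, pooled over all groups. Variation between runs or rounds is not part of that spread. Names, biotypes and gene order came from RefSeq assembly Hsal_v8.6, in which 13989 identifiers, including all 94 members, had a match. No sequences were used here.

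FPKM values of a gene were whole multiples of 1 step after depth scaling. This gave whole reads for 100% of 12692 genes detected in at least 3 libraries, within 0.001 read of a whole number, and the transcript length behind each value. Even numbers made up 55.1% of them, so a read need not be an independent fragment. The recovered depth factor lay within 0.99 to 1.015 times a median-of-ratios size factor rather than following the total.

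The 9433 genes that reached 1 FPKM in 7 or more libraries were tested as log2(FPKM + 0.5) by limma 3.58.1 (R 4.3.3). A single model of all 32 libraries held 4 group means and a batch factor with 3 levels (round 2 and round 3 on run 200626, round 2 on run 200508), with a mean-variance trend in eBayes. Fold changes on this scale understate low genes. The fit was tested on simulated data. Members and gene lists were chosen with earlier results of these data known, and 10 list entries were corrected after symbols were seen. Genes named are the first 10, those at the rank limit, all called members or those with the smallest p, the ends of the spread, and members of role lists. LOC105188516 and LOC105181154 were looked up after values were seen.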

Additional observations from a re-analysis of the deposited data

Results flagged for a closer look

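Within groups, 34 members in 4 groups were examined for a brain far from the rest, and 19 of the 136 sets held one. Chance alone marks about 1 in 20, but that rate is no fair comparison here, since the members examined include those of the widest spread and those called, and the same brains recur over genes that move together. In gamergates given Kr-h1 siRNA, replicate 1 was the highest for LOC105189300 (1159 FPKM, next 644.8), RpL10 (962.4, next 601.7), RpS3A (801.8, next 489.1), LOC105189799 (330.4, next 215.8), LOC105192162 (313.0, next 221.1) and eIF4A (274.8, next 215.8). Among gamergate controls, replicate 3 was the highest for LOC112588553 (8804 FPKM, next 4485), LOC105190668 (937.9, next 304.8), Qbp-1 (768.8, next 379.7), LOC105189300 (752.0, next 346.9), RpL10 (596.1, next 420.4) and RpS3A (486.0, next 320.0). Worker Kr-h1 replicate 1 was the highest for LOC109504538 (3139 FPKM, next 1961) and LOC112589757 (495.1, next 347.3). Worker Kr-h1 replicate 2 was the highest for LOC105190786 (1610 FPKM, next 1112) and the lowest for LOC105189799 (135.0, next 183.6). Worker GFP replicate 4 was the highest for RpS3A (821.1 FPKM, next 539.4). LOC105189828 was highest in gamergate Kr-h1 replicate 5 (3420 FPKM, next 1125) and in worker GFP replicate 8 (2328, next 742.2).

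The knockdown difference in gamergates exceeded that in workers for 6 members by limma's interaction test, by 0.98 for LOC105189300, 0.81 for RpL10, 0.77 for LOC105192162, 0.75 for RpS3A, 0.60 for LOC105189799 and 0.46 for eIF4A on the log2 scale. The brains named above as highest in RpS3A lie in both gamergate groups and in worker controls, and those in RpL10 in both gamergate groups.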

How the results depend on the processing

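Knockdown in workers called 0 members in every setting run. Knockdown in gamergates called 0 as reported, 1 with a pseudocount of 1 or 0.1, median-of-ratios scaling, round 2 only, a robust variance model or voom, 2 without 4 libraries of low weight, 3 without worker GFP replicates 4 and 5, and 6 with array weights (4 higher, 2 lower). Leaving out single libraries gave 0 to 5. The interaction called 6 as reported, 0 with no batch term, round 2 only, round 3 only, run 200626 only or without the 4 low-weight libraries, 1 with the gene span trend removed or without worker GFP replicates 4 and 5, and 13 when scaled to genes outside the list, which shifted the median of all genes to 0.22. Single libraries moved it between 0 and 27. Caste in GFP brains gave 4 as reported (1 higher, 3 lower), 7 without the low-weight libraries, 12 under that scaling (0 higher), 22 with array weights (14 higher) and 39 with no batch term (12 higher), and 1 to 6 without single libraries. Caste after Kr-h1 siRNA gave 1 as reported, 14 with array weights and 0 with no filter, that scaling, no batch term, round 3 only, run 200626 only or without the low-weight libraries, and 0 to 5 without single libraries. The causes were not tested. No called difference changed sign. Round 2 could not serve for caste, where caste and run coincide. Voom, run 200626 only and the low-weight setting were chosen after seeing the data.

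Replicate numbers were not used as pairs in the main fit. Worker replicate 5 was in round 2 for GFP and in round 3 for Kr-h1 siRNA. Deviations of same-numbered brains correlated between -0.406 and 0.438. They were taken from means of only 3 to 5 brains, so these values cannot exclude pairing. With a replicate block, 1 member was called in gamergate knockdown, 1 in the interaction, and 0 for caste in GFP brains, 0 for caste after Kr-h1 siRNA and 0 in worker knockdown. The rule was stable in part, with 83 members again in the first 100 from worker controls alone and 88 from gamergate controls alone. Depth does not limit the members, whose lowest value rested on 89 reads.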
